A study of Arabidopsis thaliana with 18 samples.

Results

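The ARGONAUTE genes AGO1 to AGO10 of Arabidopsis thaliana were chosen by gene identifier, and 8 of the 10 were among the 19858 genes of the authors' deposited RNA table. AGO5 (AT2G27880) and AGO8 (AT5G21030) were not listed there, so they have no transcript value here. The samples were whole seedlings of ecotype C24, either pold2 mutant or wild type (WT). POLD2 encodes the second subunit of DNA polymerase delta, which copies the genome, and the labels give neither the pold2 allele nor the number of lines. Both genotypes were 10 days old, untreated and grown on MS medium with 20 g/L sucrose at 22°C under 23 h of light per day. RNA came from 3 pold2 and 3 WT libraries, which the authors pooled to 1 FPKM value (fragments per kilobase of transcript, scaled to library size) per genotype. Histone peaks came from 1 WT library per mark.

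ARGONAUTE proteins bind small RNAs and use them to find matching transcripts, which are cleaved or kept from translation, or matching loci, at which DNA methylation is laid down. In Arabidopsis they form 3 clades. In the clade of AGO1, AGO5 and AGO10, AGO1 and AGO10 bind mainly microRNAs. AGO2, AGO3 and AGO7 include AGO2, which acts in antiviral defence and binds small RNAs made at DNA breaks, and AGO7, which starts the production of trans-acting siRNAs from the TAS3 transcript. In the clade of AGO4, AGO6, AGO8 and AGO9, AGO4, AGO6 and AGO9 bind siRNAs that direct DNA methylation together with RNA polymerases IV and V.

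The pooled values carry no SD and no depth. Nothing in the labels says whether the 3 libraries of a genotype were separate cultures, so the spread behind the authors' q may be technical. POLD2 itself (AT2G42120) stood at 2.83 FPKM in pold2 and 7.21 FPKM in WT, 2.55-fold lower by the authors' deposited table (q = 0.00103). Genes of green tissue and root were both present, with LHCA1 of photosystem I at 2906 FPKM in pold2 and 4782 FPKM in WT, and the root iron transporter gene IRT1 at 112 FPKM in pold2 and 77.3 FPKM in WT in the authors' deposited table. Genes were called where the authors' q was under 0.05. By that rule 12.4% of genes in the authors' deposited table were called, 5.97% higher and 6.47% lower in pold2. In whole seedlings a lower value from fewer cells of a type and one from less RNA per cell cannot be told apart, and likewise for higher values.

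The comparison of pold2 with WT asked which ARGONAUTE transcripts changed when POLD2 was impaired. AGO2, AGO7 and AGO9 rose, 3 of the 8 listed members, and none fell, by the authors' deposited table, where 5.97% of all genes were higher. AGO9 could only be higher, because its WT level was under the table's minimum of 0.501 FPKM and it is listed through pold2 alone. Of such genes 36.2% were called higher, so its call is not comparable with the share over all genes. Among genes at or above that minimum in WT, a setting chosen after seeing the data, 2 of 7 members, AGO2 and AGO7, were called higher, beside 5.55% of those genes in the authors' deposited table. AGO2 and AGO7 also passed q under 0.01 in the authors' deposited table, which 3.74% of all genes did in that direction. AGO9 passed it too, but is not comparable with that share either. When genes with a mean under 1 FPKM, among them AGO9, were dropped and p adjusted again, 2 members and 5.67% of genes were higher. AGO1, AGO4, AGO6 and AGO10 had slightly lower values in pold2 and AGO3 a higher one, none of them called. The median log2 ratio of the 8 listed members was 0.21, against -0.0063 over all genes. That median is no property of the whole family, since 4 values lay above 0 and 4 below, and without AGO3 and AGO9, whose means were under 1 FPKM, it was -0.056. Without adjustment for multiple tests, 4 of the 8 members had a p under 0.05 in the authors' deposited table, beside 4764 of all 19858 genes. These 4 members were the 3 called ones and AGO3.

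**Figure D1:**
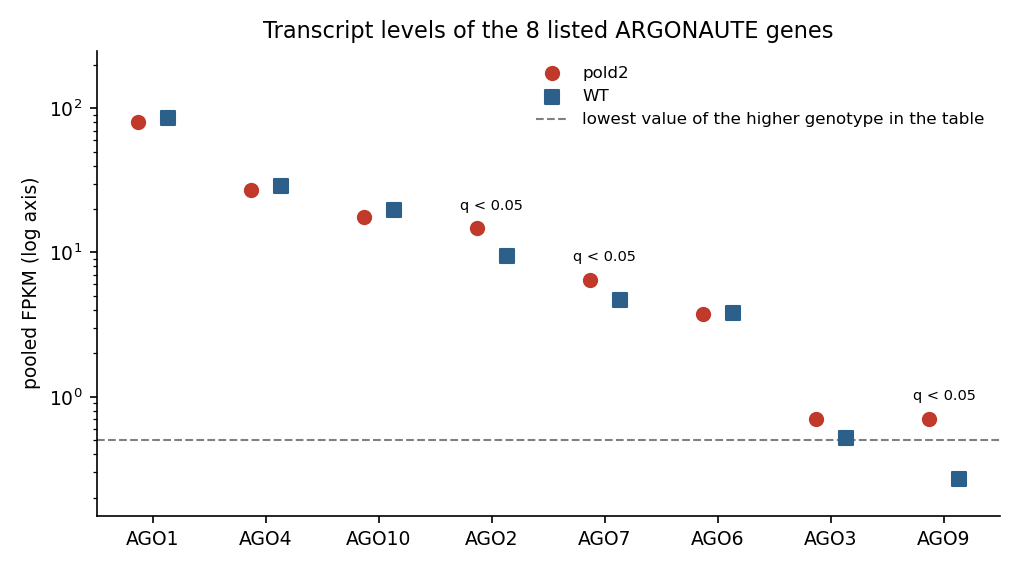
Pooled FPKM on a log axis for the 8 listed ARGONAUTE genes, ordered by WT level, with pold2 as circles and WT as squares, and no error because each point is 1 pooled value. The dashed line marks 0.501 FPKM, the lowest value that the higher genotype has in the table. AGO1 stands highest in both genotypes, AGO3 and AGO9 lie near the line, and the WT value of AGO9 lies under it.

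FPKM is a level per length, so the members may be set beside each other. The order in pold2 was AGO1, AGO4, AGO10, AGO2, AGO7, AGO6, AGO9 and AGO3, and in WT it differed in the last pair, with AGO3 above AGO9. AGO9 and AGO3 stood at 0.704 and 0.703 FPKM in pold2, and whether any neighbours in the order differ beyond the spread between libraries cannot be said from pooled values. AGO1 was 2.98 times as high as AGO4 in pold2 and 2.96 times in WT. AGO10 was 1.19 times as high as AGO2 in pold2 and 2.11 times in WT. The 8 levels summed to 151.6 FPKM in pold2 and 153.0 FPKM in WT, a ratio of 0.991. AGO1, AGO4 and AGO10 together held 82.6% of that sum in pold2 and 87.8% in WT. The clade of AGO2, AGO3 and AGO7 held 14.4% in pold2 and 9.54% in WT.

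AGO1 (AT1G48410, chromosome 1, 17885633 to 17892596, TAIR10) encodes the main effector of microRNAs in the plant. Its level was 80.7 FPKM in pold2 and 85.6 FPKM in WT in the authors' deposited table (log2 ratio -0.085, q = 0.678). It lay at percentile 90.9 of all genes in pold2 and 91.2 in WT. AGO10 (AT5G43810, chromosome 5, 17610972 to 17616797), which binds miR165 and miR166 and keeps them from AGO1 in the shoot meristem, stood at 17.5 FPKM in pold2 and 19.8 FPKM in WT in the authors' deposited table. Its log2 ratio of -0.18 was the lowest of the 8 members, and it was not called in the authors' deposited table (q = 0.288).

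AGO2 (AT1G31280, chromosome 1, 11181711 to 11185344) had the largest gain in FPKM of the 8 members. It stood at 14.7 FPKM in pold2 and 9.39 FPKM in WT in the authors' deposited table, 1.56-fold higher (log2 ratio 0.65, p = 5e-05, q = 0.00103). That p is the smallest in the table and is shared by 965 genes, so AGO2 cannot be ranked among them by it. AGO2 lay at percentile 56.0 of levels in pold2 and 43.0 in WT, and its log2 ratio at percentile 96.2 of all genes. AGO7 (AT1G69440, chromosome 1, 26101527 to 26105166) stood at 6.45 FPKM in pold2 and 4.69 FPKM in WT in the authors' deposited table, 1.37-fold higher (log2 ratio 0.46, q = 0.00264).

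AGO3 (AT1G31290, chromosome 1, 11188293 to 11192317) lies 2948 bp from AGO2 and is its closest relative. Its level was 0.703 FPKM in pold2 and 0.516 FPKM in WT in the authors' deposited table, with a log2 ratio of 0.44 and q = 0.151. AGO3 thus missed the threshold with a ratio close to that of AGO7. AGO7 was called at a level 9.17 times as high in pold2 and 9.08 times in WT. Among the 993 genes of like WT level to AGO3, 0 to 0.910 FPKM, the median log2 ratio was 0.43. In pold2 791 of these had a higher value, and those under the table's minimum in WT could only be higher. Among genes of like WT level to AGO7, 4.35 to 5.62 FPKM, the median log2 ratio was 0.029. AGO2 stood 20.9 times as high as AGO3 in pold2 and 18.2 times in WT. These genes are similar in sequence, and how reads that match both were assigned is not given in the sources used here.

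AGO4 (AT2G27040, chromosome 2, 11536534 to 11542357), the main effector of siRNA-directed DNA methylation, stood at 27.1 FPKM in pold2 and 28.9 FPKM in WT in the authors' deposited table (log2 ratio -0.096, q = 0.631). AGO6 (AT2G32940, chromosome 2, 13971997 to 13977476), which acts in the same pathway, mainly in meristems, stood at 3.76 FPKM in pold2 and 3.83 FPKM in WT in the authors' deposited table (log2 ratio -0.027, q = 0.935). AGO4 was 7.19 times as high as AGO6 in pold2 and 7.55 times in WT.

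AGO9 (AT5G21150, chromosome 5, 7192239 to 7198324) acts in the ovule, where it silences transposable elements and limits the number of cells that start female germline development. Its level was 0.704 FPKM in pold2 and 0.267 FPKM in WT in the authors' deposited table, 2.63-fold higher (log2 ratio 1.40, q = 0.00103). The direction was fixed by the table's own minimum. Every listed gene had at least 0.501 FPKM in 1 genotype, and each of the 271 genes under that value in WT was therefore higher in pold2. Of these 271 genes, 98 (36.2%) were called higher in the authors' deposited table. With a pseudocount of 0.1 FPKM the log2 ratio of AGO9 was 1.13, and with 1 FPKM it was 0.43. AGO9 was the lone member that changed at least 2-fold and passed q under 0.05 in the authors' deposited table. By this rule 1.2% of all genes were higher. The 271 genes under the minimum in WT had a median log2 ratio of 1.18, so AGO9 is not comparable with that share. AGO9 is similar in sequence to AGO8, so reads could also be shared between these genes.

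**Figure D2:**
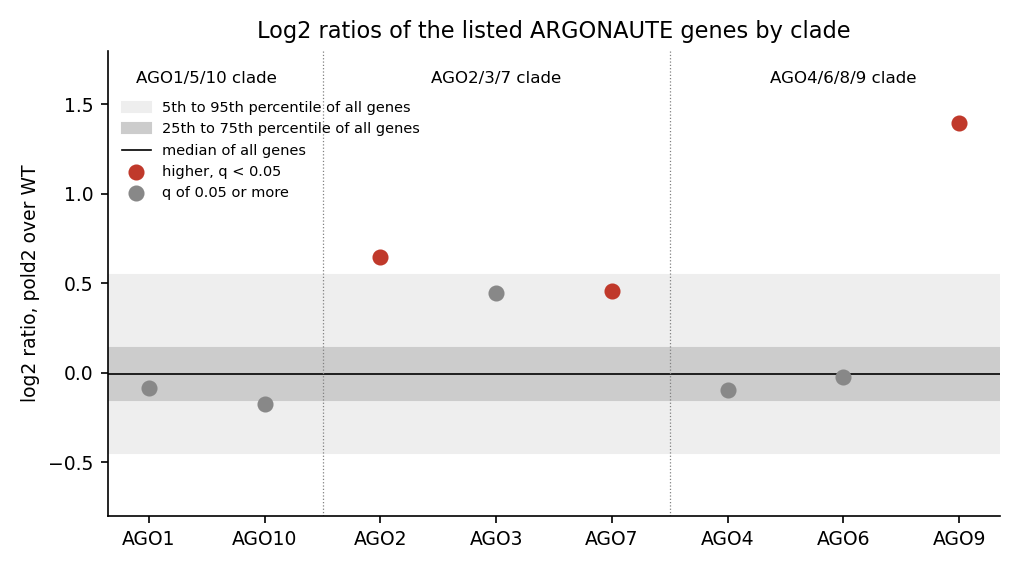
Log2 ratio of pold2 over WT for each listed ARGONAUTE gene, grouped by clade, with red points for genes called higher and grey points for genes not called, and shaded bands for the distribution over all genes. The points of AGO2 and AGO9 lie above the band that ends at the 95th percentile, AGO3 and AGO7 lie inside it at 0.44 and 0.46, and AGO1, AGO4, AGO6 and AGO10 lie just under 0.

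Markers of flowers and of the germline were examined beside AGO9. Of 15 flower and ovule markers 12 were listed. Of these, 6 were called higher and none lower by the authors' deposited table, beside 5.97% and 6.47% of all genes. Of the 12 listed ones 9, among them 5 of the 6 called, were under the table's minimum in WT. They could only be higher, as AGO9 was, so their direction is no result. Among all genes under that minimum in WT, 36.2% were called higher in the authors' deposited table. SEP3 was the called marker above that minimum. The 12 levels summed to 262 FPKM in pold2 and 37.0 FPKM in WT. SEP3 made up most of the pold2 sum, and ANT and BEL1 most of the WT sum. ANT and BEL1, the other listed markers above that minimum in WT, were not called. ANT stood at 15.6 FPKM in pold2 and 16.4 FPKM in WT in the authors' deposited table (q = 0.742). BEL1 stood at 14.8 FPKM in pold2 and 12.3 FPKM in WT in the authors' deposited table (q = 0.0793). AP1, which specifies sepals and petals, had 0.813 FPKM in pold2 and was listed at 0 in WT in the authors' deposited table. SEP3, a MADS-box gene of floral organs, was at 196 FPKM in pold2 and 6.79 FPKM in WT, SEP1 at 8.21 FPKM in pold2 and 0.469 FPKM in WT, and the petal and stamen gene PI at 5.55 FPKM in pold2 and 0.331 FPKM in WT in the authors' deposited table. CRC, INO and SPL, which mark carpels and ovules, were not listed. The ovule identity gene STK had 0.696 FPKM in pold2 and 0.0519 FPKM in WT and was not called in the authors' deposited table (q = 0.330), a gene picked after its values were seen.

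Of 7 meiosis genes, 4 were listed and 2 were called higher, beside 5.97% of all genes, in the authors' deposited table. The 4 summed to 14.2 FPKM in pold2 and 10.4 FPKM in WT. SDS and ZYP1A were not called (q = 0.844 and 0.129 in the authors' deposited table). ASY1, of the meiotic chromosome axis, stood at 0.992 FPKM in pold2 and 0.414 FPKM in WT in the authors' deposited table (q = 0.00662). It too was under the table's minimum in WT and could only be higher, and of such genes 36.2% were called higher. DMC1, the meiotic recombinase, stood at 11.3 FPKM in pold2 and 8.63 FPKM in WT in the authors' deposited table (q = 0.0207). SPO11-1, SYN1 and MMD1 were not listed. Of 8 meristem genes, 4 were listed and 1 was called higher, beside 5.97% of all genes, in the authors' deposited table. It was STM, which maintains the shoot meristem, at 4.57 FPKM in pold2 and 2.65 FPKM in WT in the authors' deposited table (q = 0.00103). KNAT1, CUC1 and CUC3 were not called (q = 0.230, 0.511 and 0.910 in the authors' deposited table). The listed meristem genes summed to 23.9 FPKM in pold2 and 19.4 FPKM in WT. CUC2, CLV3, WUS and LFY were not listed. The part of these tissues in the values of AGO9 or any other member was not tested.

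The genes that make and stabilise small RNAs were compared next. None of the 17 listed genes for microRNA biogenesis and turnover was called in the authors' deposited table, where 12.4% of all genes were. Of the 17, 1 passed an unadjusted p under 0.05, beside 4764 of all 19858 genes. The median log2 ratio of the 17 was 0.0033. FBW2, an F-box protein that targets AGO1 for degradation, stood at 39.2 FPKM in both genotypes, and DDL, which interacts with the microRNA processing enzyme DCL1, at 35.2 FPKM in pold2 and 36.1 FPKM in WT in the authors' deposited table. Among 6 genes for siRNA amplification 1 rose, beside 5.97% of all genes, in the authors' deposited table. It was RDR1, an RNA-dependent RNA polymerase of antiviral defence. RDR1 stood at 5.10 FPKM in pold2 and 3.67 FPKM in WT in the authors' deposited table (1.39-fold, q = 0.00335). RDR6, SGS3 and DCL4, which make trans-acting siRNAs downstream of AGO7, had log2 ratios from -0.0075 to 0.24 and were not called (smallest q = 0.119 in the authors' deposited table). These 3 were picked from the list after its values were seen.

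Of 27 genes of the Pol IV and Pol V pathway, through which AGO4, AGO6 and AGO9 act, 25 were listed, and 3 rose and 1 fell by the authors' deposited table, with a median log2 ratio of 0.034. That share of called genes, 4 of 25, stands beside the 12.4% of all genes. CLSY3 and CLSY4, chromatin remodellers that guide Pol IV to its loci, were 3.51-fold and 1.75-fold higher (q = 0.00103 each) in the authors' deposited table. CLSY3 stood at 1.85 FPKM in pold2 and 0.526 FPKM in WT, and CLSY4 at 1.90 FPKM in pold2 and 1.09 FPKM in WT, so both were low in WT in the authors' deposited table. SUVH2, which helps to recruit Pol V to methylated DNA, was 1.29-fold higher (q = 0.0147) in the authors' deposited table. NRPD4, a subunit of Pol IV and Pol V, was at 18.4 FPKM in pold2 and 24.6 FPKM in WT, 1.33-fold lower (q = 0.0129), in the authors' deposited table.

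Transcripts that are themselves bound by ARGONAUTE-held small RNAs were mostly not called. Of 44 target genes 41 were listed, of which 3 rose and 1 fell by the authors' deposited table, a share near the 12.4% of all genes, and the median log2 ratio was -0.033. The 3 higher ones were APS4, of sulfate assimilation and a target of miR395 (1.45-fold), and the copper and zinc superoxide dismutase genes CSD2 (1.44-fold) and CSD1 (1.36-fold), targets of miR398, in the authors' deposited table (q = 0.00103 each). TCP4, a leaf growth regulator and target of miR319, was 1.37-fold lower (q = 0.00103) in the authors' deposited table. The other 4 miR319 targets also had lower values in pold2, none of them called. The 5 HD-ZIP III genes, targets of miR165 and miR166, had log2 ratios from -0.20 to 0.14 and no call, with a smallest q of 0.197 in the authors' deposited table. ARF2, ETT and ARF4, targets of the TAS3 siRNAs, had log2 ratios from -0.12 to 0.088 and no call in the authors' deposited table. These subsets were formed after the values were seen.

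Precursors of trans-acting siRNAs were also compared. All 5 listed TAS genes had lower values in pold2, with a median log2 ratio of -0.21. Of these, 2 were called lower, beside 6.47% of all genes, in the authors' deposited table. TAS1B, TAS1C and TAS2 were not called (q = 0.590, 0.819 and 0.443 in the authors' deposited table). TAS3, the transcript that AGO7 and miR390 act on, stood at 45.7 FPKM in pold2 and 62.5 FPKM in WT in the authors' deposited table, 1.37-fold lower (q = 0.00335). TAS1A, cut by AGO1 with miR173, stood at 8.82 FPKM in pold2 and 12.5 FPKM in WT in the authors' deposited table, 1.41-fold lower (q = 0.00662). MIR168A, MIR168B and MIR403, whose microRNAs target AGO1 and AGO2, were not listed.

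**Figure D3:**
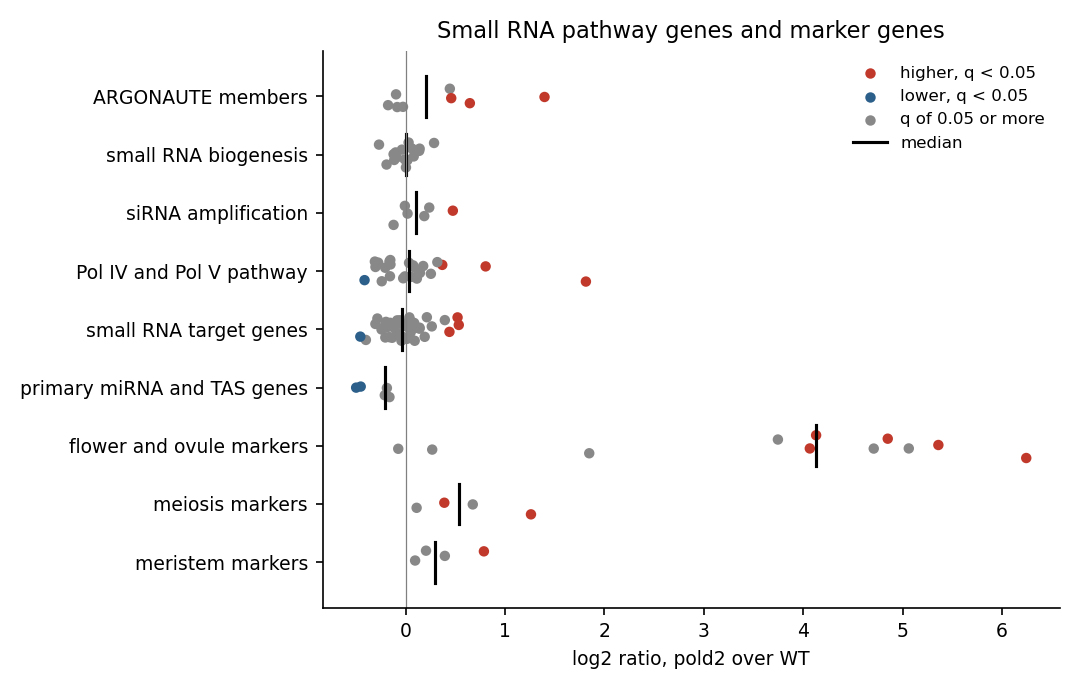
Log2 ratio of pold2 over WT for each listed gene of the ARGONAUTE family and of 8 gene lists, with 1 point per gene, vertical jitter for legibility, red for called higher, blue for called lower, grey for not called and a black bar at the median. The biogenesis genes lie close to 0 with no call, the TAS genes all lie left of 0, and the flower markers reach past 6. AP1, listed at 0 in WT, has no ratio and is left out.

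Listed genes beside the members were compared to see whether a member moved with its surroundings. Of the 14 neighbours that are no members, 1 was called higher and 1 was called lower by the authors' deposited table. That share lies near the 12.4% of all genes called in either direction. The nearest listed genes of AGO2 were AGO3 and, 16782 bp away, AT1G31240 (1.75 FPKM in pold2, 1.49 FPKM in WT, q = 0.633 in the authors' deposited table). Next to AGO7, AT1G69450, 1744 bp away, was also called higher, with 8.45 FPKM in pold2 and 6.52 FPKM in WT in the authors' deposited table (log2 ratio 0.37, q = 0.0169). AT1G69420 on the other side of AGO7 stood at 42.1 FPKM in pold2 and 42.0 FPKM in WT in the authors' deposited table (q = 0.989). LARP1a, 416 bp from AGO9, stood at 40.6 FPKM in pold2 and 40.2 FPKM in WT in the authors' deposited table (q = 0.962), and AT5G21140 on the other side of AGO9 at 1.75 FPKM in pold2 and 1.52 FPKM in WT (q = 0.629). Because AGO9 could only be higher, these values cannot tell whether it moved with its neighbours. The neighbour called lower was EIL1, a transcription factor gene of ethylene signalling beside AGO4, with 67.7 FPKM in pold2 and 82.3 FPKM in WT in the authors' deposited table (q = 0.0397), named after its value was seen.

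**Figure D4:**
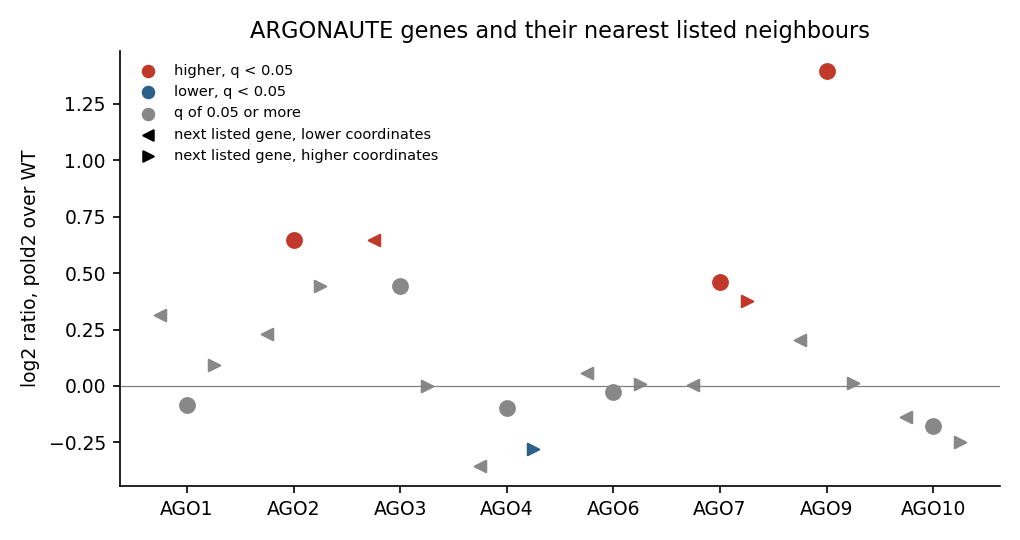
Log2 ratio of pold2 over WT for each listed ARGONAUTE gene (circles) and the nearest listed gene on either side (triangles), coloured by call. AGO9, whose WT level was under the table's minimum and which could only be higher, lies at 1.40, and its neighbours lie at 0.20 and 0.013. AGO7 and the gene on its higher-coordinate side were both called higher.

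Histone marks over the loci were read from the WT peak lists. H3K4me3 marks the start of transcribed genes, H3K27me3 is laid down by Polycomb at repressed genes, and H3K9me2 marks silent transposons. Of the 8 listed members, 7 lay under an H3K4me3 peak, beside 83.8% of all genes. For H3K27me3 the count was 3 of 8, beside 15.3% of all genes, and for H3K9me2 it was 0 of 8, beside 0.68% of all genes. Each list comes from 1 library, so a peak has no replicate, and no pold2 peaks were analysed here.

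The H3K4me3 peaks sat at 1 end of each locus, the lower-coordinate end for AGO2, AGO3 and AGO10 and the higher-coordinate end for AGO1, AGO4, AGO6 and AGO7. They were 900 to 2137 bp long and covered 15.5% to 36.7% of the loci. By the authors' score AGO10 had the highest-ranked one, at 2751 (rank 3038 of 15782 peaks, chromosome 5, 17611015 to 17613151), followed by AGO1 at 2005 (rank 5586). AGO2 and AGO4 had scores of 1087 and 1046, and AGO7 of 671. AGO3 and AGO6 had the weakest, at 102 and 85.7, ranks 15137 and 15309 of the 15782. AGO9 had no H3K4me3 peak, and the nearest one lay 2327 bp away.

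H3K27me3 covered AGO9 almost in full. Its 3 peaks together covered 92.1% of the locus. The middle one (chromosome 5, 7193049 to 7196869) was 3821 bp long with a score of 672, rank 1340 of 7271. The peak over AGO3 covered 100% of the locus with a score of 117 (rank 5136), and AGO3 also carried its weak H3K4me3 peak, a pair of marks found at 6.62% of all genes. The peak at AGO1 was of another kind, since it covered 138 bp at the edge of the locus, 1.98% of its length, and otherwise lay outside. AGO3 and AGO9 were also the members with the lowest WT levels. Among the 993 genes in the WT level range that holds both, from 0 to 0.910 FPKM, 46.5% lay under an H3K27me3 peak and 39.0% under an H3K4me3 peak. In that range 169 of the 993 genes (17.0%) were called higher, beside 5.97% of all genes, in the authors' deposited table. Of the 1718 genes with H3K27me3 and no H3K4me3 peak, as at AGO9, 18.7% were called higher in the authors' deposited table. Of the 15331 with H3K4me3 alone, as at AGO2 and AGO7, it was 3.45%, and of those with both, as at AGO3, 13.9%. The median WT levels were 2.51, 15.4 and 7.15 FPKM in that order. The part of the level in these shares was not tested. AGO9 could only be higher, so its call is not comparable with such a share.

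**Figure D5:**
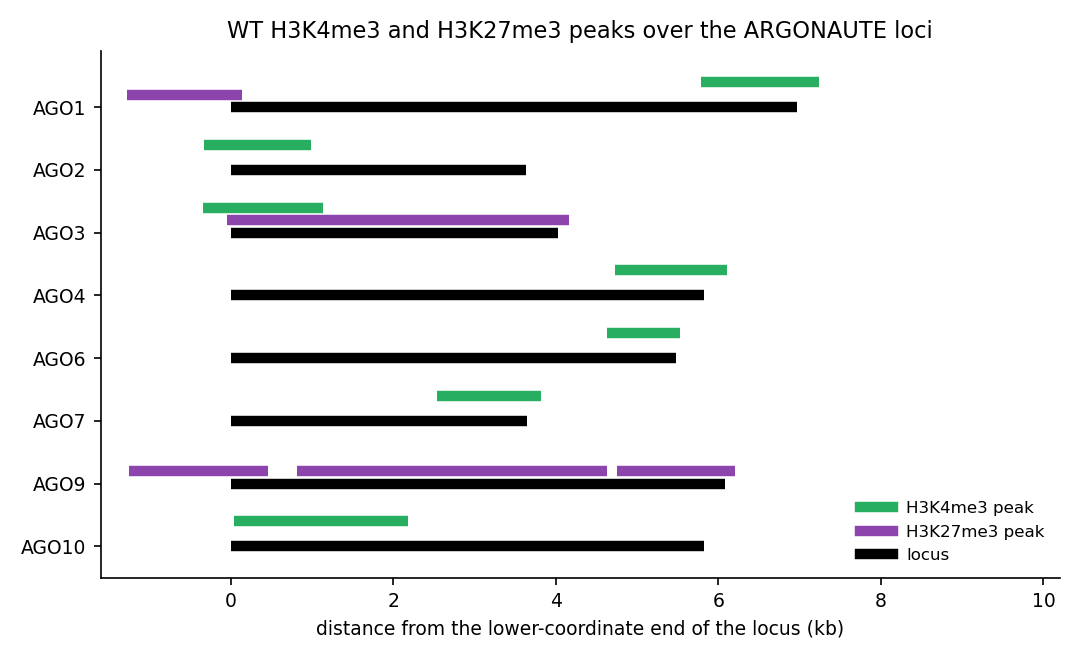
WT peaks over the 8 listed loci, drawn to scale as distance in kb from the lower-coordinate end of each locus, with the locus in black, H3K27me3 in purple and H3K4me3 in green. H3K4me3 sits at 1 end of 7 loci, H3K27me3 spans AGO3 and AGO9, and the H3K27me3 peak at AGO1 touches 138 bp of its edge.

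For the members without a row, the space between the listed genes on either side was searched. AGO5 and 1 pseudogene, AT2G27870, lie between AT2G27860 and AT2G27900 in the reference gene order, in a stretch of 10522 bp (chromosome 2, 11866908 to 11877429). A 5775 bp H3K27me3 peak lay wholly inside it (11871196 to 11876970), with a score of 785 and rank 1083 of 7271. A 965 bp H3K4me3 peak with a score of 99.1 and a 786 bp H3K9me2 peak with a score of 158 also lay inside. At its ends 2 more H3K4me3 peaks, with scores of 3100 and 2451, overlapped it by 259 and 301 bp. AGO8 alone lies between AT5G21020 and AT5G21040, in a stretch of 5215 bp (chromosome 5, 7139662 to 7144876). No H3K27me3 or H3K9me2 peak reached that stretch, and 1 H3K4me3 peak overlapped its first 86 bp from the side of AT5G21020. The listed genes on both sides of AGO5 and AGO8 were not called in the authors' deposited table (q from 0.501 to 0.883).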

How the data were processed

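The members and gene lists were chosen with earlier results of these data known. The submitters' processing notes name TopHat2 2.1.1, Cuffdiff 2.1.1, Bowtie 0.12.9, SAMtools and TAIR10 without saying what each was used for. The authors deposited FPKM values pooled to 1 per genotype, a log2 ratio of pold2 over WT, and p-value and q-value columns, per the file headers. The deposited q equals a Benjamini-Hochberg adjustment of p over all 19858 genes to within 5.28e-07. The authors' deposited peak lists give a score per peak, with peak names that begin with MACS. Version and control of the caller: not given in the sources used here.

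Pooled values allowed no test across libraries, so calls rest on the authors' q under 0.05. Locus starts in the table count from 0 (3538 lie 1 below the start in a TAIR10.1 gene table, 122 equal it), and 1 was added. That table gave names and gene order only. Loci carry no strand. A locus was under a peak if they shared 1 bp or more. Level ranges are 20 bins of genes ranked by WT FPKM, with about equal numbers of genes in each. Genes named were POLD2, all members, up to 4 called genes per list by smallest q (otherwise the 2 with the highest mean) and the listed neighbours of called members. The adjustment and overlap steps were tested on simulated data. Python 3.11.15 with pandas 2.3.3 was used. Sequences of the members were not used here. Bisulfite libraries and the ChIP libraries of pold2, H3 and input were not used.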

Additional observations from a re-analysis of the deposited data

How the results depend on the processing

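No paired analysis was possible because the table holds 1 pooled value per genotype, and no library could be left out for the same reason. AGO2, AGO7 and AGO9 were also called at q under 0.01. With a 2-fold minimum 1 member, AGO9, which could only be higher, was called higher. With a mean of at least 1 FPKM and p adjusted again, AGO9 was left out by construction and 2 members were called higher. All 8 log2 ratios kept their sign with pseudocounts of 0.1 and 1 FPKM and with median-ratio scaling. The median over the members was 0.073 with a pseudocount of 1 FPKM and -0.056 with a mean of at least 1 FPKM. Pseudocount 1 FPKM moved the medians of the flower list to 1.81, of the meiosis list to 0.33 and of the meristem list to 0.19, and the minimum mean moved the last to 0.50. At q under 0.01 the Pol IV and Pol V list had 0 lower genes and the meiosis list 1 higher gene, also 1 with the minimum mean. The summed FPKM ratio of pold2 over WT was 1.004 without AGO4 and 1.05 without AGO1. H3K4me3 covered at least 50% of the locus at 0 members, and in the better-scoring 50% of its peaks 2 members, AGO1 and AGO10, were under a peak. H3K27me3 covered at least 50% of the locus at 2 members, AGO3 and AGO9, and its better-scoring peaks lay over AGO1 and AGO9. The depth is unknown, and AGO3 and AGO9 were under 1 FPKM in both genotypes.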
